A study of Paralichthys olivaceus with 24 samples.

Results

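The early response of warm-reared Japanese flounder (Paralichthys olivaceus) to poly(I:C) was measured in spleen, 3 h after treatment at 25 °C. It compared the 3 arrays whose titles name poly(I:C) at 25 °C after 3 h with the 3 whose titles name water at the same temperature and time. These are 6 of the 24 one-colour Agilent arrays of the series. The series crosses poly(I:C) or DEPC-treated water (water treated to inactivate RNA-degrading enzymes) with rearing at 15 °C or 25 °C and sampling at 3 h or 24 h, with 3 arrays in each of 8 groups. All fish in the groups used here thus received either poly(I:C) or the water control, and the labels give no strain, age, dose or route. The labels do not state that the 3 arrays of a group were separate fish, so every p-value refers to the spread between arrays, and that spread may be technical.

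Poly(I:C), a synthetic RNA of paired strands, mimics the genome or replication products of a virus. In fish as in mammals, double-stranded RNA is sensed by Toll-like receptor 3 and by receptors of the RIG-I family, whose signalling leads to interferon production and then to transcription of interferon-stimulated genes such as Mx, an antiviral GTPase. The spleen is a major lymphoid organ of bony fish, and flounder body temperature follows the water. The probes of this array carry design identifiers and targets that are assembled contigs or database sequences, and 0 of the 14478 targets matched a gene in the reference used here. The results are therefore given by probe and by group of probes, no probe is assigned to any of these pathways, and neither interferon genes nor spleen cell markers could be counted.

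Of 14481 non-control probes, 13377 were tested, those that all 3 arrays of some group (1 or more of the 8) detected well above background, and the other 1104 were left out. Signals are log2 values relative to the 75th percentile of each array, so a value of 0 is a probe at that percentile, and a change of 1 is a 2-fold change. On the 6 arrays at 25 °C after 3 h, between 85.5% and 91.1% of probes were well above background, and the 75th percentile lay between 348 and 594 intensity units. No probe was saturated on any of the 24 arrays. The 3 poly(I:C) arrays lay on slide 2 and the 3 water arrays on slide 3. Slide and treatment can be separated only through poly(I:C) at 25 °C after 24 h, which has 1 array on slide 2 and 2 on slide 3. The water arrays were the more variable group, with a median SD of 0.27 per probe against 0.19 for the poly(I:C) arrays, and water replicate 1 lay farthest from its group (median distance 0.33). The number of arrays limits the precision, and the median standard error of a response was 0.20.

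At 25 °C after 3 h the spleen signal of nearly every second probe differed between the poly(I:C) and water arrays, which lay on different slides. More probes were lower than higher under the scaling used (the reverse when array medians were set equal), and the strongest fitted changes were upward. By limma with Benjamini-Hochberg adjustment over all tested probes (adjusted p under 0.05, here "called"), 6281 probes (47%) were called. Of these, 2367 (17.7% of all tested) were higher and 3914 (29.3%) lower with poly(I:C). With slide as a fixed block the count was 2282. The median rise among called probes was 0.89 and the median fall -0.86. All tested probes together had a median change of -0.15, with quartiles at -0.63 and 0.31. The split between higher and lower depended on the scaling, with 3491 higher and 2556 lower when each array's median was set equal, and 653 higher and 3862 lower when 6 spike-in control probes were. Since RNA of bulk spleen was measured, fewer cells of a type and less RNA per cell cannot be told apart in any fall or rise given here.

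The balance of the directions differed by size, and at 2-fold also by scaling. Among called probes changed at least 2-fold, 1047 were higher and 1513 lower, but 1466 and 939 under median scaling, 1207 and 1147 under quantile scaling, and 581 and 3189 under spike-in scaling. At 4-fold or more the counts were 311 higher and 188 lower, at 8-fold or more 142 and 17, and at 16-fold or more 75 and 2. The excess of strong rises held under each of the 7 other settings in the plot of calls by setting, where between 96 and 169 probes were higher and between 1 and 51 lower by at least 8-fold. A fall can be measured only down to background, where 52 of the 188 falls of at least 4-fold had all 3 poly(I:C) arrays. This limits large falls of dim probes under every setting, and its part in the excess was not tested. In 6937 probes (51.9%) the poly(I:C) and water arrays did not overlap, with poly(I:C) above in 2671 (20%) and below in 4266 (31.9%). Of the non-overlapping probes, 5822 (43.5% of all tested) were also called.

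**Figure D1:**
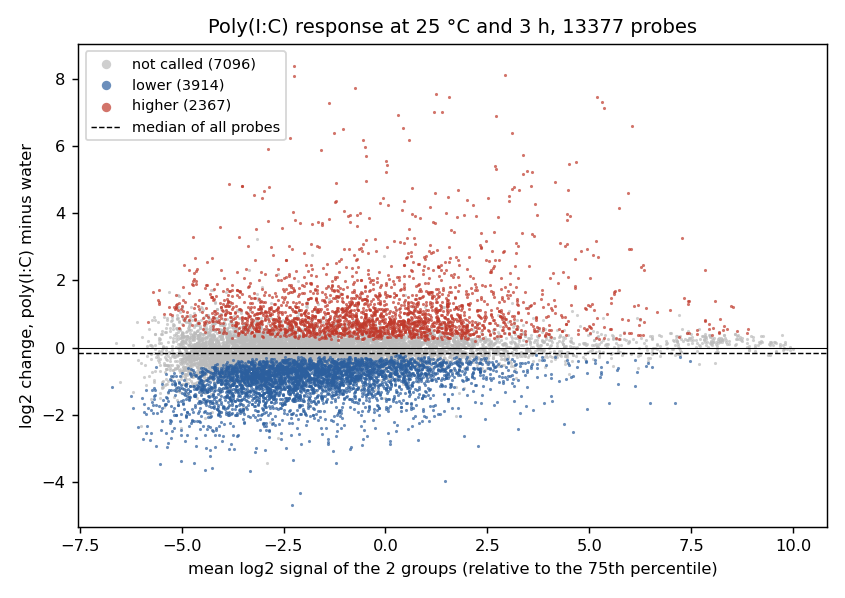
Change with poly(I:C) at 25 °C after 3 h (log2, vertical axis) against the mean log2 signal of both groups (horizontal axis), 1 point per tested probe. Fitted rises reach 8.38 while fitted falls, which can be measured only down to background, end at -4.67. The dashed line marks the median change of -0.15.

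The change varied with the level of the probe in the water arrays, which also enter the change itself. Probes were split into 4 bins of like number by that level. The dimmest bin had 443 higher and 644 lower, and the next 452 higher and 1248 lower. In the third bin 676 were higher and 1142 lower, and in the brightest 796 were higher and 880 lower. The median changes, in the same order, were -0.15, -0.29, -0.18 and -0.01. Under the scaling used, falls thus outnumbered rises most in the second bin and least in the brightest. The bins were not counted under other scalings, and median scaling shifted the median change of all probes by 0.22.

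Probes for database sequences and for contigs were both affected. Of 337 tested database probes, 72 (21.4%) were higher and 79 (23.4%) lower. Of 13040 tested contig probes, 2295 (17.6%) were higher and 3835 (29.4%) lower. Rises of at least 4-fold were called for 30 (8.90%) of the database probes and 281 (2.16%) of the contig probes. No test of this difference was made.

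Some probes were detected in only one of the groups. In 172 probes no water array and all poly(I:C) arrays were well above background, and 86 of them (50%) were called, all higher. Over all tested probes 17.7% were called higher, and the way these 172 were chosen favours a rise. For such probes only a lower bound of the fold can be given, the poly(I:C) mean against the lowest signal well above background on the water arrays or the probe's own, whichever is higher. The median bound was 1.12-fold, it was at least 4-fold in 12 of the 172, and its highest value was 87.8-fold. All bounds given hold for the background subtraction used, and fitted changes under another background correction can lie below them. The opposite pattern, all water arrays and no poly(I:C) array above background, was seen in 61 probes. Of these, 58 were called, all lower (29.3% of all tested), the direction that this pattern favours. There the highest bound was 6.42-fold. The remaining calls were mostly well measured on both sides, with 5599 probes above background on all 6 arrays. A further 24 called probes were not above background on any of the 6 arrays, so that no fold can be given for them.

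Probes are named by the size of the fitted change, which is no measured size where a group lies at background. CUST_377_PI426483993, a probe for a database sequence, had the largest fitted rise, but against water arrays at background. In the water arrays its log2 signals were -6.60, -6.40 and -6.32, not well above background on any, and in the poly(I:C) arrays they were 2.54, 2.08 and 1.20. The groups were far apart, and the signal was at least 87.8-fold higher with poly(I:C) (fitted log2 change 8.38 ± 0.55, SE, n = 3 per group; limma adjusted p = 6.39e-10). CUST_7060_PI426483990, a contig probe with a rise measured on both sides, had -2.39, -0.90 and -0.06 in water and 7.47, 6.98 and 6.56 with poly(I:C). Here all 6 arrays were above background and the groups did not overlap, although the water arrays spread over more than 2 units (change 8.12 ± 0.50, a 278-fold rise; limma adjusted p = 3.47e-10). Which of these 2 rises is the larger cannot be said, and under another background correction (normexp on median spot signals) the fitted values were 4.73 for CUST_377_PI426483993 and 7.78 for CUST_7060_PI426483990.

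The largest fitted fall was that of CUST_9137_PI426483990, from 0.21, -0.14 and 0.03 in water to -4.49, -4.15 and -5.27 with poly(I:C). Its 3 water arrays were close together, and only 2 of the 3 poly(I:C) arrays remained above background (change -4.67 ± 0.29; limma adjusted p = 3.4e-10). CUST_5622_PI426483990 fell from -0.08, 0.65 and -0.37 to -3.90, -4.52 and -4.29. It was above background on all 6 arrays and the groups did not overlap (change -4.31 ± 0.32; limma adjusted p = 3.61e-09). Both are contig probes of unknown identity here. Under normexp the fitted changes were smaller, -2.845 for CUST_9137_PI426483990 and -2.70 for CUST_5622_PI426483990, and both were still called.

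**Figure D2:**
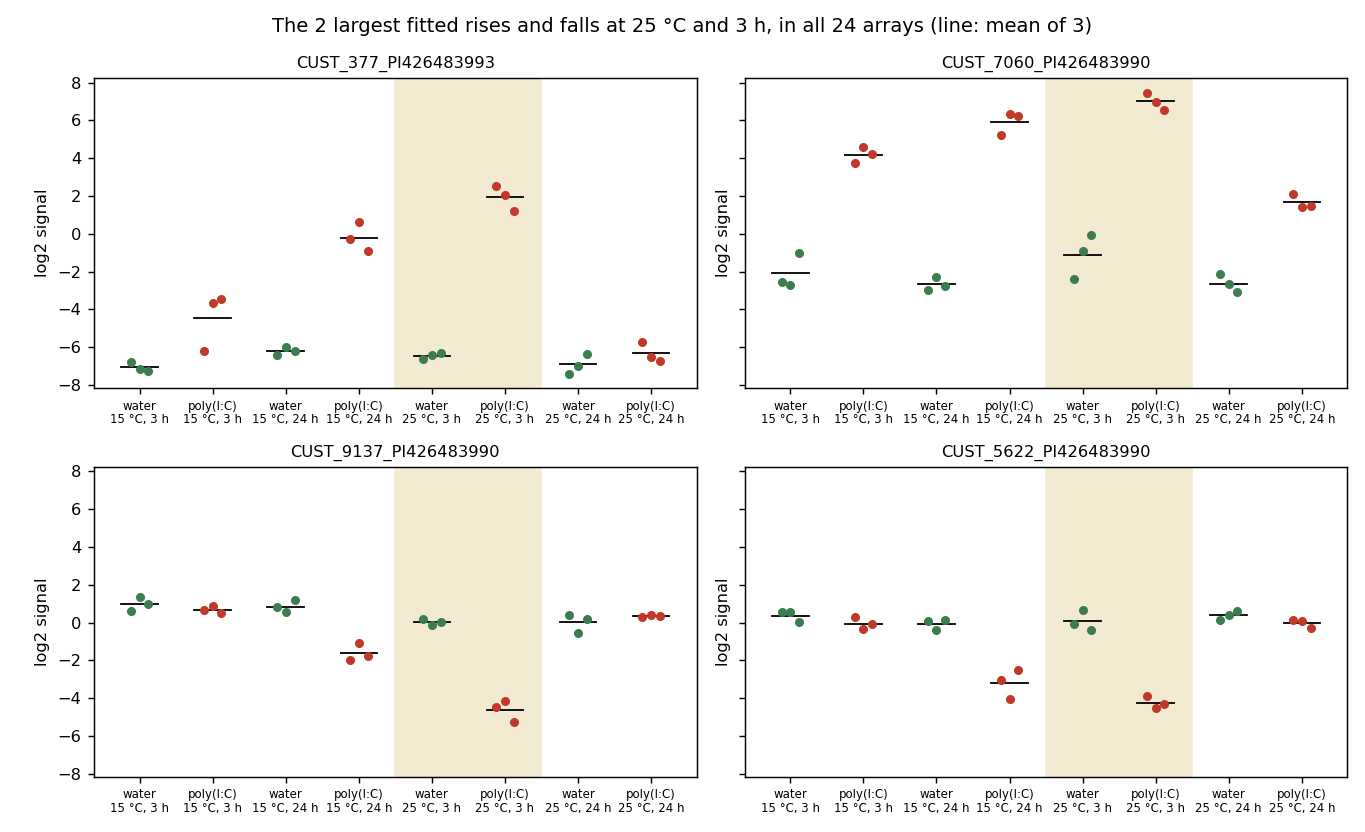
Log2 signal relative to the array's 75th percentile (vertical axis) of the 2 probes with the largest fitted rise and the 2 with the largest fitted fall, in each of the 24 arrays by group (points) with the group mean (line) and the 25 °C, 3 h groups shaded. All 4 probes were also called with poly(I:C) at 15 °C after 24 h, while neither fall was called in the other 2 responses.

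The 75 probes that rose at least 16-fold were looked at array by array. Their values at 25 °C after 3 h chose them and are a description. Their median signal was -1.66, -2.63 and -1.68 in the 3 water arrays, and 3.19, 3.82 and 3.77 in the 3 poly(I:C) arrays. Water replicate 2 was thus the low array of its group, and it gave the lowest water signal for 51 of the 75 probes. Over all 13377 tested probes it was the lowest for 4320, and choosing the 75 by their rise over these water arrays favours a low one. The poly(I:C) arrays were tighter than the water arrays in 56 of the 75. In water, 57 of the 75 were above background on all 3 arrays, 8 on some and 10 on none. In 34 of the 75, the poly(I:C) arrays at 25 °C after 3 h were above each of the 21 arrays of the other groups. The same held for 688 (5.14%) of all tested probes, and the choice of the 75 by these arrays favours it.

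A further 236 probes rose between 4- and 16-fold, with medians of -0.78, -1.09 and -0.84 in the water arrays and 1.63, 1.85 and 1.88 with poly(I:C). Water replicate 2 was again the lowest array, for 142 of the 236, against 4320 of the 13377 tested probes. The choice by these arrays favours this too. The 188 probes that fell at least 4-fold had medians of -1.58, -1.80 and -1.81 in water and -3.90, -4.22 and -4.33 with poly(I:C). For the falling probes it was the poly(I:C) side that was variable, with a median SD of 0.50 against 0.35 in water. Of these 188, 52 had all 3 poly(I:C) arrays at background, so the size of their fall is bounded by it.

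**Figure D3:**
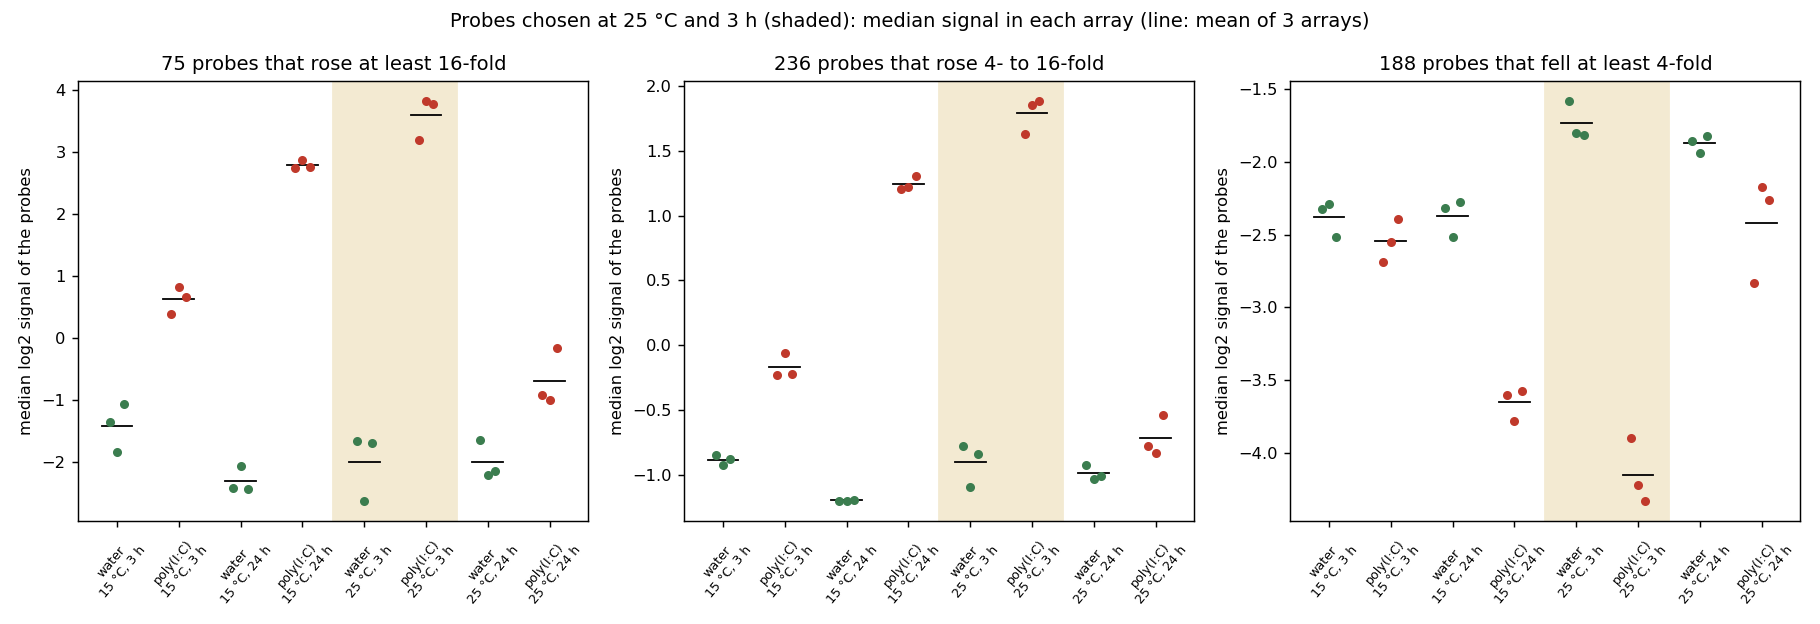
Median log2 signal (vertical axis) of the 75, 236 and 188 probes chosen by their change at 25 °C after 3 h, in each array (points) with the mean of 3 arrays (line), for the 8 groups (horizontal axis) and with the choosing groups shaded. The rising probes are next highest with poly(I:C) at 15 °C after 24 h, where the falling probes are also next lowest.

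Across the other conditions, the strong rises had like values at 15 °C after 24 h, and lower ones at 15 °C after 3 h and 25 °C after 24 h. No array is shared among the 4 responses, although slides are. At 15 °C after 24 h the poly(I:C) arrays lay on slide 1 and the water arrays on slide 2. Slide and treatment thus coincide there, as they do at 25 °C after 3 h. At 15 °C after 3 h and at 25 °C after 24 h most arrays of both treatments shared a slide. The part of the slides in these likenesses was not tested further. The 75 probes with at least 16-fold rises had a median change of 4.96 at 25 °C after 3 h. Their median was 4.73 at 15 °C after 24 h, where 74 of the 75 were called higher, against 18.9% of all tested probes (37.7% in either direction). At 15 °C after 3 h it was 1.91, and 45 were called higher (1.7% of all tested, 2.24% in either direction). At 25 °C after 24 h it was 0.81, and 40 were called higher and 1 lower (7.5% and 10.6% of all tested, 18.1% together). By limma's test of the difference itself, 75 of the 75 rose more at 25 °C after 3 h than at 25 °C after 24 h, 65 more than at 15 °C after 3 h, and 22 more than at 15 °C after 24 h, against 13.1%, 13.1% and 6.03% of all tested probes. The probes were chosen for their size at 25 °C after 3 h, which favours a positive difference.

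The weaker rises also had their nearest medians at 15 °C after 24 h. The 236 probes that rose 4- to 16-fold had a median of 2.60 at 25 °C after 3 h and 2.70 at 15 °C after 24 h. There 214 were called higher, against 18.9% of all tested probes. At 15 °C after 3 h and at 25 °C after 24 h their medians were 0.37 and 0.35. The 2056 called probes with smaller rises had a median of 0.80, and of 0.55 at 15 °C after 24 h. There 1181 were called higher and 47 lower (18.9% and 18.8% of all tested). Their medians in the other 2 responses were -0.04 at 15 °C after 3 h and 0.10 at 25 °C after 24 h.

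The strong falls were smaller elsewhere. The 188 probes that fell at least 4-fold had a median of -2.35 at 25 °C after 3 h. It was -1.16 at 15 °C after 24 h, where 109 were called lower and 6 higher (18.8% and 18.9% of all tested). It was -0.54 at 25 °C after 24 h, with 33 called lower (10.6% of all tested). At 15 °C after 3 h it was -0.12, with 4 called lower, where 0.538% of all tested probes were. The difference from the other response was itself called, in the negative direction, for 170 of the 188 against 15 °C after 3 h, 119 against 25 °C after 24 h and 92 against 15 °C after 24 h, where 17.1%, 12.7% and 12.1% of all tested probes were. These probes were chosen by their fall at 25 °C after 3 h, which favours a negative difference. No fall of 4-fold or more was called at 15 °C after 3 h for any tested probe, against 25 at 25 °C after 24 h and 170 at 15 °C after 24 h.

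Counted probe by probe, 113 of the 311 that rose at least 4-fold were also called higher at 15 °C after 24 h and in neither of the other 2 responses. A further 70 rose at both 15 °C after 24 h and 25 °C after 24 h, 62 at both times at 15 °C, and 35 in all 4 responses. No call in any other response was made for 18 of the 311. Of the 188 strong falls, 89 were also called lower at 15 °C after 24 h alone and 57 in no other response. Of all tested probes, 18.9% were called higher and 18.8% lower at 15 °C after 24 h. The shares were 1.7% and 0.538% at 15 °C after 3 h, and 7.5% and 10.6% at 25 °C after 24 h. Few calls at 15 °C after 3 h are thus found among all probes too, and the share of all tested probes with each pattern was not counted.

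**Figure D4:**
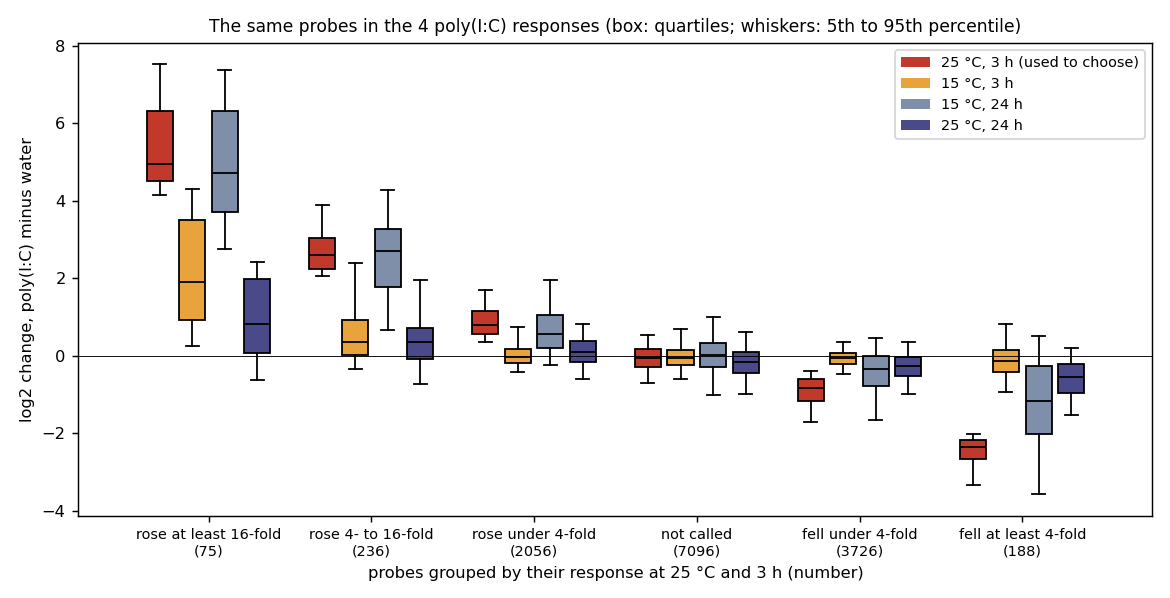
Change with poly(I:C) (log2, vertical axis) in each of the 4 temperature and time settings, for tested probes grouped by their response at 25 °C after 3 h (horizontal axis, number of probes in brackets), with boxes at the quartiles and whiskers at the 5th and 95th percentiles. In the strongest group the medians are 4.96 at 25 °C after 3 h, 4.73 at 15 °C after 24 h, 1.91 at 15 °C after 3 h and 0.81 at 25 °C after 24 h.

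Probes chosen in the other responses gave values at 25 °C after 3 h that the choice did not use. The 82 probes that rose at least 4-fold at 15 °C after 3 h, by a median of 3.15, had a median change of 2.91 at 25 °C after 3 h, with 69 called higher and 1 lower, where 17.7% of all tested probes were higher and 29.3% lower. The 72 that rose at least 16-fold at 15 °C after 24 h, by a median of 5.04, had a median of 4.67, with 69 called higher. The 37 that rose at least 4-fold at 25 °C after 24 h, by a median of 2.28, had a median of 4.36, and 30 were called higher and 1 lower. Of these 37 late risers at 25 °C, 25 had a larger change at 3 h.

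Falls chosen elsewhere gave other values. The 170 probes that fell at least 4-fold at 15 °C after 24 h, by a median of -2.44, had a median of -1.60 at 25 °C after 3 h, and 138 were called lower. The 25 that fell at least 4-fold at 25 °C after 24 h, by a median of -2.29, had a median of only -0.11, with 5 called lower (20%), 1 higher (4%) and 19 not called. Over all tested probes 29.3% were lower and 17.7% higher, so the 138 of 170 (81.2%) lay above that share of lower calls and the 5 of 25 below it.

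How the response depended on temperature at 3 h was tested as the difference between the responses at 25 °C and 15 °C. It was called by limma for 4042 probes (30.2%). Of these, 1750 (13.1%) had a positive difference, a more positive change at 25 °C, and 2292 (17.1%) a negative one, a more negative change. This split reversed to 2786 positive and 1279 negative under median scaling and to 2027 and 1830 under quantile scaling. Of the 2292, 1993 were called falls of under 4-fold at 25 °C after 3 h, and 170 were called falls of at least 4-fold. For 3637 of the 4042 only the response at 25 °C was itself called, and for 38 only that at 15 °C. Both were called in the same direction for 109, of which 93 moved more at 25 °C, and in opposite directions for 21. The count was 1155 with slide as a fixed block.

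The largest positive fitted difference was that of CUST_11992_PI426483990, and it has no measured size, since 3 of the 4 groups lay at background. At 25 °C its signals were -6.61, -6.18 and -6.06 in water and 0.55, 1.94 and 2.92 with poly(I:C). At 15 °C after 3 h no array of either treatment was well above background, the poly(I:C) arrays giving -5.30, -6.38 and -6.12. The rise at 25 °C was at least 80.0-fold, and the fitted responses differed by 7.16 ± 0.83 (limma adjusted p = 5.19e-06). CUST_377_PI426483993 followed, with -6.20, -3.65 and -3.45 for poly(I:C) at 15 °C after 3 h, where 2 of 3 arrays were above background. Its fitted difference was 5.77 ± 0.78 (limma adjusted p = 2.32e-05), again against water arrays at background. Under normexp the fitted differences were 4.32 for CUST_11992_PI426483990 and 4.11 for CUST_377_PI426483993, both still called and both below the 5.46 of CUST_6587_PI426483990, a probe described further on.

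In the most negative direction stood 2 probes that rose at 15 °C. CUST_7260_PI426483990 went from -3.06, -2.79 and -2.98 in water to 1.89, 2.23 and 2.74 with poly(I:C) at 15 °C after 3 h. At 25 °C after 3 h it was at -0.81, -1.80 and -0.05 in water and -1.30, -1.04 and -0.94 with poly(I:C), and these groups overlapped. The 3 water arrays at 25 °C were each above those at 15 °C, and the difference between the responses was -5.44 ± 0.55 (limma adjusted p = 1.09e-06).

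CUST_3444_PI426483990 had -1.90, -3.26 and -4.82 in water at 25 °C after 3 h and -6.07, -6.86 and -7.17 with poly(I:C), at least 3.56-fold lower and at background on all 3 arrays. At 15 °C after 3 h it rose from -6.83, -7.47 and -7.13 to -4.04, -3.45 and -3.48. There no water array and only 2 of 3 poly(I:C) arrays were above background, so the difference has no measured size. The fitted difference was -6.87 ± 1.05 (limma adjusted p = 8.1e-05), and with slide as a fixed block it was -3.41 (limma adjusted p = 0.0762). In that fit the change at 25 °C after 3 h was 0.09, of the opposite sign. This dim probe also lost its call under normexp, with a difference of -2.03 (limma adjusted p = 0.117). Its change at 25 °C after 3 h was -1.01 under normexp and not called either (limma adjusted p = 0.234).

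The course at 25 °C was tested as the difference between the responses at 3 h and 24 h. It was called by limma for 3447 probes (25.8%), with 1751 (13.1%) on the positive side, more positive at 3 h, and 1696 (12.7%) on the negative. This split was 1495 and 1805 under quantile scaling, 2158 and 1301 under median scaling, and 206 and 4326 under spike-in scaling. Only the 3 h response was itself called for 2325 of them and only the 24 h response for 434. Both were called in the same direction for 275, of which 262 moved more at 3 h. Both were called in opposite directions for 236, with 111 higher at 3 h and lower at 24 h and 125 the reverse. The count was 2224 with slide as a fixed block.

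For the probes with the largest fitted differences, the rise at 25 °C after 3 h was not seen at 25 °C after 24 h. CUST_11992_PI426483990 was at -7.48, -6.77 and -6.47 with poly(I:C) at 25 °C after 24 h, not above background on any array. Its fitted difference of 8.66 ± 0.83 (limma adjusted p = 5.21e-07) is likewise taken against background and is no measured size. CUST_6587_PI426483990 rose at 3 h from -1.84, -2.41 and -2.06 in water to 4.52, 4.65 and 5.52, without overlap. At 24 h it stood at -1.95, -3.31 and -2.66 in water and -4.51, -3.37 and -3.42 with poly(I:C), so that the poly(I:C) arrays were the lower ones. All of these arrays were above background, and the difference was 8.12 ± 1.11 (limma adjusted p = 2.97e-05). Under normexp it was 6.88, against 5.12 for CUST_11992_PI426483990.

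The fall of CUST_9137_PI426483990 had likewise no counterpart at 25 °C after 24 h, where poly(I:C) gave 0.27, 0.38 and 0.33 against 0.42, -0.53 and 0.18 in water. The difference was -4.98 ± 0.41 (limma adjusted p = 7.83e-08). At 15 °C after 24 h CUST_9137_PI426483990 was called lower, with a change of -2.455 ± 0.29 (limma adjusted p = 1.48e-06). CUST_5979_PI426483990 moved in opposite directions. At 3 h it was at -3.26, -3.61 and -4.30 in water and at -6.11, -5.55 and -7.31 with poly(I:C), where no array was above background, a signal at least 2.71-fold lower. At 25 °C after 24 h it rose from -3.88, -4.49 and -4.48 to -2.52, -3.32 and -2.89 (limma adjusted p = 0.049). The responses differed by -3.98 ± 0.67 (limma adjusted p = 0.000221), and under normexp by -1.15 (limma adjusted p = 0.276). The fall of CUST_5979_PI426483990 at 25 °C after 3 h was itself -0.79 under normexp and not called (limma adjusted p = 0.18).

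Another test set the response against the late one in the cool. The difference from 15 °C after 24 h was called by limma for 2430 probes (18.2%), with 806 (6.03%) on the positive side and 1624 (12.1%) on the negative. This split reversed to 1286 positive and 949 negative under median scaling, and was 871 and 1062 under quantile and 42 and 322 under spike-in scaling. Only the response at 25 °C after 3 h was called for 1106 of these and only that at 15 °C after 24 h for 597. Both were called in the same direction for 486, of which 233 moved more at 25 °C after 3 h, and in opposite directions for 183. Temperature and time both differ between these responses and cannot be told apart. In both responses the poly(I:C) and water arrays lay on different slides. The count was 190 with slide as a fixed block.

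Rises that were larger at 25 °C after 3 h than at 15 °C after 24 h included that of CUST_9380_PI426483990. It went from -5.86, -6.83 and -5.07 to -1.85, -0.85 and -0.64, a rise of at least 10.6-fold, and at 15 °C after 24 h no array of either treatment was above background. The fitted difference, taken against background, was 5.04 ± 0.65 (limma adjusted p = 6.72e-05), but 2.13 (limma adjusted p = 0.222) under normexp. The rise of CUST_9380_PI426483990 at 25 °C after 3 h was 1.81 under normexp (limma adjusted p = 0.0269). CUST_13955_PI426483990 went from -6.35, -5.50 and -4.50 to 0.09, 1.08 and 1.20, at least 39.6-fold. It was also called higher at 15 °C after 24 h, from -6.78, -6.40 and -6.63 in water to -5.40, -5.25 and -4.62 with poly(I:C) (change 1.52 ± 0.50; limma adjusted p = 0.0226), although only 1 of those 6 arrays was above background. The fitted difference was 4.72 ± 0.71 (limma adjusted p = 0.0003).

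Among the most negative differences from 15 °C after 24 h, both leading probes rose there. CUST_6083_PI426483990 was at 0.84, 1.08 and 2.03 in water and 0.60, -0.02 and 0.29 with poly(I:C) at 25 °C after 3 h, a change that was not called (-1.03 ± 0.51; limma adjusted p = 0.108). At 15 °C after 24 h it went from -3.73, -2.71 and -3.18 to -0.68, 0.32 and 0.28. The difference of -4.21 ± 0.72 (limma adjusted p = 0.000888) came to -0.62 with slide as a fixed block (limma adjusted p = 0.766).

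CUST_6389_PI426483990 fell at 25 °C after 3 h from -1.44, -1.98 and -1.61 to -3.49, -3.64 and -4.03, without overlap. At 15 °C after 24 h it rose from -3.89, -4.61 and -4.54 to -1.98, -2.28 and -2.33. The difference of -4.20 ± 0.65 (limma adjusted p = 0.000376) came to -1.32 with slide as a fixed block (limma adjusted p = 0.347), and its change at 25 °C after 3 h to 0.45. For this probe the poly(I:C) arrays at 25 °C after 24 h read -2.83 on slide 2 and -0.09 and -0.59 on slide 3. For CUST_6083_PI426483990 they read -2.76 on slide 2 and -0.56 on both arrays of slide 3, so both probes were lower on slide 2 within 1 group.

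A response was taken as particular to 25 °C after 3 h where it was called and differed by its own limma test from each of the other 3 responses in the same direction. This held for 670 probes (5.01%), 229 (1.71%) higher and 441 (3.3%) lower. Median scaling reversed this split, giving 444 higher and 211 lower, and spike-in scaling gave 11 and 101. The 3 differences share the arrays at 25 °C after 3 h. The 229 higher probes had a median change of 1.30 at 25 °C after 3 h, and of 0.07 at 15 °C after 3 h, 0.23 at 15 °C after 24 h and -0.03 at 25 °C after 24 h. The 441 lower probes had medians of -1.18, and of -0.08, -0.17 and -0.11. These changes were mostly moderate, with 54 of the 229 and 61 of the 441 at 4-fold or more, and 102 and 268 were called in no other response. At 15 °C after 24 h, 85 of the 229 were called higher and 12 lower. Of the 441, 123 were called lower there and 20 higher. Among all tested probes, 18.9% were called higher there and 18.8% lower. With slide as a fixed block the count was 42, of which 36 were among the 670. The direction was kept in at least 99.4% of the 670 for each of the 4 contrasts. The 670 were chosen by these contrasts on the same arrays, which favours a kept direction.

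The largest fitted rise of this kind was that of CUST_377_PI426483993, given above. Its fitted change was 6.015 at 15 °C after 24 h, 2.61 at 15 °C after 3 h and 0.59 at 25 °C after 24 h. CUST_13892_PI426483990 followed, at -6.43, -4.66 and -3.99 in water and 2.84, 2.34 and 1.57 with poly(I:C), with no overlap but above background on only 1 water array. Its change of 7.28 ± 0.52 (limma adjusted p = 1.96e-09) compares with 4.21 at 15 °C after 24 h, 1.70 at 15 °C after 3 h and -0.30 at 25 °C after 24 h. The largest fitted fall was that of CUST_9137_PI426483990, with -2.455, -0.31 and 0.31 in the same order of the other responses. CUST_6470_PI426483990 followed, from -1.52, -1.28 and -1.71 in water to -5.51, -4.74 and -5.22 with poly(I:C), where only 1 array was above background. Its fitted change was -3.65 ± 0.22 (limma adjusted p = 2.23e-10), but -1.74 under normexp. In the other responses, in the same order, it was -2.34, -0.56 and -0.55.

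All 4 probes differed least from the response at 15 °C after 24 h. In the fit with slide as a fixed block none of these 4 differences was called. They were 1.71 for CUST_377_PI426483993 (limma adjusted p = 0.592), 3.72 for CUST_13892_PI426483990 (limma adjusted p = 0.196), -2.10 for CUST_9137_PI426483990 (limma adjusted p = 0.205) and -1.05 for CUST_6470_PI426483990 (limma adjusted p = 0.393). Under normexp none was called either, with limma adjusted p between 0.186 and 0.67.

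Of the groups, 2 span slides, water at 15 °C after 3 h (slides 1 and 2) and poly(I:C) at 25 °C after 24 h (slides 2 and 3). Only the latter bears on slide 2 against slide 3, and it has 1 array on slide 2. For the response at 25 °C after 3 h, the fit with slide as a fixed block thus rests on that 1 array. A slide effect and a deviation of that array cannot be told apart. In poly(I:C) at 25 °C after 24 h, the slide 2 array differed from the mean of the 2 slide 3 arrays by a median size of 0.21. Between the slide 3 arrays it was 0.16. It was at least 4-fold higher in 22 probes and at least 4-fold lower in 87. Across the 13377 probes this slide difference correlated with the response at 25 °C after 3 h at r = 0.26, a description over probes that share the same few arrays. Among probes called higher its median was 0.10, and among those called lower -0.03.

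With slide as a fixed block, 2282 probes were called, 950 higher and 1332 lower, at a median standard error of 0.36. Of the 6281 calls, 96.6% kept their direction and 2219 remained called. The calls were chosen on the same arrays, which favours a kept direction. All 75 rises of at least 16-fold remained called, with a median of 5.03 against 4.96 without the block. So did 138 of the 142 rises of at least 8-fold and 276 of the 311 of at least 4-fold. Of the 188 falls of at least 4-fold, 95 remained called and 176 kept their direction, with a median of -1.92 against -2.35.

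**Figure D5:**
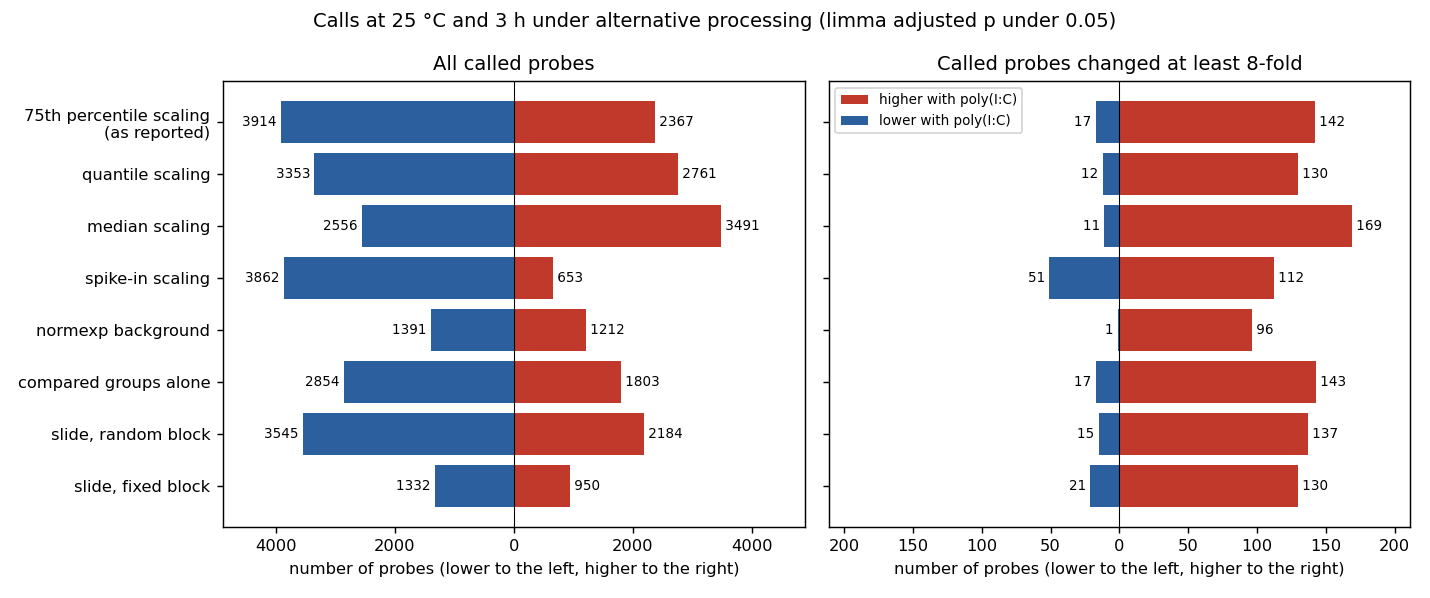
Number of probes called lower (left of 0) and higher (right of 0) with poly(I:C) at 25 °C after 3 h under 8 settings, for all calls and for calls changed at least 8-fold. Rises of at least 8-fold number between 96 and 169 and outnumber falls of that size in each setting shown, while the split of all calls ranges from 653 higher and 3862 lower to 3491 higher and 2556 lower. Falls of dim probes are bounded by background in each setting.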

How the data were processed

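Total RNA from spleen was labelled with Cy3 and hybridised to one-colour Agilent arrays, per the labels' protocols. The deposited scanner files hold a background-subtracted processed intensity per spot. Feature Extraction 10.7.3.1 is named per the file headers, and version 9.5.3.1 per the submitters' processing notes. The deposited value table holds log2 values of the same arrays, which matched the 75th-percentile-scaled scanner values to within 0.00417 once a constant per probe was removed. Its column medians lay between -0.161 and 0.114, its direction is that of the signal, and how the constant per probe was set is not given in the sources used here.

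Here control spots and spots marked as outliers were left out, spots of a probe were averaged, and log2 intensity was taken minus each array's 75th percentile. In 46 probe values (14 on the 6 arrays compared) every spot was marked, and the fit left these out. The model, a mean for each of the 8 groups, used limma 3.58.1 under R 4.3.3 (lmFit, then eBayes) on the 24 arrays. It left 16 residual degrees of freedom, and Benjamini-Hochberg adjustment ran over all tested probes. The scripts were tested on simulated data. Alternatives were other scalings, background correction, filters, thresholds, slide and replicate blocks, the compared groups alone, and leaving out each array. Background correction by normexp (offset 50) used median spot signals, as the files given hold no mean signal. The members and lists were chosen with earlier results of these data known. For each comparison the text names no more than 2 rising and 2 falling probes, those with the largest fitted value among called probes (groups not overlapping for the response itself). Same-numbered samples did not vary together (r between -0.16 and 0.04), so numbers were not taken to pair samples.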

Additional observations from a re-analysis of the deposited data

Results flagged for a closer look

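The test of a difference between responses drew attention to 4 counts, since the response at 25 °C after 3 h was compared with the same contrast at another temperature or time. By limma it differed from the response at 15 °C after 3 h in 4042 probes, from that at 25 °C after 24 h in 3447, from that at 15 °C after 24 h in 2430, and from all 3 in the same direction in 670.

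The values are fitted log2 differences. Those of CUST_11992_PI426483990, CUST_377_PI426483993, CUST_9380_PI426483990 and CUST_13955_PI426483990 are taken against water arrays at background. Those of CUST_3444_PI426483990 and CUST_5979_PI426483990 are taken against poly(I:C) arrays at background. For CUST_3444_PI426483990 the water arrays at 15 °C after 3 h were at background too. Against 15 °C after 3 h the named probes with such a difference were CUST_11992_PI426483990 (7.16 on the log2 scale), CUST_377_PI426483993 (5.77), CUST_3444_PI426483990 (-6.87) and CUST_7260_PI426483990 (-5.44). Against 25 °C after 24 h they were CUST_11992_PI426483990 (8.66), CUST_6587_PI426483990 (8.12), CUST_9137_PI426483990 (-4.98) and CUST_5979_PI426483990 (-3.98). Against 15 °C after 24 h they were CUST_9380_PI426483990 (5.04), CUST_13955_PI426483990 (4.72), CUST_6083_PI426483990 (-4.21) and CUST_6389_PI426483990 (-4.20). With slide as a fixed block, the differences of CUST_3444_PI426483990, CUST_6083_PI426483990 and CUST_6389_PI426483990 were no longer called, and under normexp background correction those of CUST_3444_PI426483990, CUST_5979_PI426483990 and CUST_9380_PI426483990 were not. The part of the slides in these differences was not tested further.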

How the results depend on the processing

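The 6281 calls at 25 °C after 3 h became 2603 under normexp background correction (1212 higher, 1391 lower) and 2282 with slide as a fixed block (950 higher, 1332 lower). Spike-in scaling gave 653 higher, and median scaling 2556 lower. The median change of all probes shifted by 0.22 under median scaling and by -0.38 under spike-in scaling. Leaving out each array gave between 5419 and 6137 calls.

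The 4042 differences from 15 °C after 3 h became 770 under spike-in scaling, 1200 under normexp, 1155 with the slide block and 2328 at an adjusted p under 0.01. The 3447 from 25 °C after 24 h became 977 under normexp, 2224 with the slide block and 2078 at 0.01. The 2430 from 15 °C after 24 h became 364 under spike-in scaling, 295 under normexp, 190 with the slide block, 1530 with slide as a random block and 992 at 0.01. The 670 probes that differed from all 3 became 112, 74, 363, 42 and 252 under spike-in scaling, normexp, the compared groups alone, the slide block and 0.01. The causes were not tested.

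Of 276 alternative values of the named probes' change at 25 °C after 3 h, 268 kept direction and side of the threshold. The named probes' differences between responses are not among these values. Several settings, such as a stricter threshold or the compared groups alone, leave the fitted change as it was. The probes were also chosen on the same arrays, and both favour a kept direction. The filter on all arrays of both groups dropped every named probe not above background on each of those arrays, so these have no value under it. They include CUST_377_PI426483993 and CUST_9137_PI426483990, with the largest fitted rise and fall, and CUST_13892_PI426483990 and CUST_6470_PI426483990. The slide block turned the change at 25 °C after 3 h to 0.0895 for CUST_3444_PI426483990, 1.18 for CUST_6083_PI426483990 and 0.45 for CUST_6389_PI426483990. For CUST_7260_PI426483990, not called, it was 0.015 under median scaling, and between -0.66 (without water replicate 2) and 0.21 (without water replicate 3) with 1 array left out. With the replicate number as a block 6195 probes were called, and the numbers share no known pairing. Dim probes limit these results, since their folds are bounded by the background.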

Other observations

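Across all 24 arrays, the poly(I:C) arrays at 25 °C after 3 h formed an extreme of the series for many probes. All 3 were above each of the 21 other arrays in 688 probes (5.14%) and below each of them in 1160 (8.67%). Under the scaling used their array medians, between -1.76 and -1.74, were below those of the 21 others, which favours the lowest over the highest. The counts in this paragraph were not made under other scalings. The poly(I:C) arrays at 15 °C after 24 h were the highest in 797 (5.96%) and the lowest in 574 (4.29%), so that there the highest outnumbered the lowest. Among the remaining groups, the water arrays at 25 °C after 24 h were the highest in 346 (2.59%) and the lowest in 127, more often the highest than the poly(I:C) arrays of that setting. Poly(I:C) at 25 °C after 24 h was the highest in 241 and the lowest in 130, and poly(I:C) at 15 °C after 3 h in 103 and 124. The water arrays at 25 °C after 3 h were the highest in 72 and the lowest in 71. For the water arrays at 15 °C the counts were 35 and 5 after 3 h, and 62 and 106 after 24 h.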
